A study of Equus caballus with 9 samples.

Results

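The DNA replication and G1/S genes described here are 48 genes that license replication origins, copy DNA, supply its precursors or carry the cell from G1 into S phase. They were fixed by name, with earlier results of these data known, so shares of the set set beside all probe sets are descriptive. Of the 48 genes, 47 were measured, each by the 1 probe set of the array that named that gene alone, among 16661 genes named in this way. CHAF1A, which encodes the large subunit of a histone chaperone, was not analysed here. Expression was measured with Affymetrix arrays in 3 groups of equine plastic-adherent cells, 3 arrays each, given as log2 intensities. Bone marrow cells (BM-MSC) came from 3 horses that received no treatment. Blood-derived cells (EA-ADSC) were grown from the blood mononuclear cells of 3 other horses, bled 2 h after electroacupuncture, a form of acupuncture that adds a weak electrical current. Adipose cells (AD-MSC) came from the tailhead fat of control horses without treatment, as 3 samples that carry no horse label. All groups were isolated with Ficoll and grown in medium with 15% serum, and the cells still attached after 96 h gave the RNA. The labels call all 3 groups mesenchymal, and give no sort or gate, age or sex. Tissue, treatment and horse changed together between the blood-derived cells and each control group, so none of these can be told apart. Adipose and bone marrow cells differed in tissue, and the labels do not say whether the adipose arrays were processed together with the others. A processing batch can therefore not be told apart from tissue in any comparison with adipose cells.

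Before a cell divides, the origin recognition complex and its partners CDC6 and CDT1 load the MCM2 to MCM7 helicase ring onto origins in G1. In S phase CDC45 and the GINS complex turn that ring into a moving helicase, and polymerases, the sliding clamp PCNA and its loader follow it. Most of these genes are transcribed at the G1/S boundary by E2F factors, once cyclin-dependent kinases release them from retinoblastoma proteins, so their transcripts are widely used as a sign of cycling cells. In RNA from a whole culture, more cells of a phase and more transcript per cell cannot be told apart.

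The median level of 10 mesenchymal surface markers was 7.14 to 7.46 on the bone marrow arrays, 6.29 to 7.07 on the blood-derived arrays and 6.05 to 6.39 on the adipose arrays. Against bone marrow 7 of the 10 were higher and 3 lower in blood-derived cells, with log2 differences from -4.88 to 2.97, and 3 were higher and 7 lower in adipose cells, from -3.56 to 0.75. The median level of 10 matrix genes of fibroblast-like cells was at least 10.84 on each bone marrow array, 10.44 to 10.70 on the blood-derived arrays and 7.47 to 8.52 on the adipose arrays, so the adipose arrays stood lower. The median level of 8 pan-leukocyte markers was 4.58 to 5.46 on the bone marrow arrays, 4.11 to 4.24 on the blood-derived arrays and 4.14 to 4.39 on the adipose arrays. PTPRC, the gene of the leukocyte antigen CD45, was at 3.97 ± 0.57, 3.10 ± 0.10 and 3.14 ± 0.51 (mean ± SD, n = 3, as for all levels below) in the same order, all below the median of 4.62 of all values. The median of the 8 pan-leukocyte markers was above 4.62 on bone marrow arrays 1 and 3, at 5.46 and 4.75. For the 10 measured monocyte and macrophage markers the range was 4.16 to 5.42, 3.59 to 4.08 and 4.13 to 4.20, with the highest value on bone marrow array 1 and the bone marrow and adipose ranges overlapping. Bone marrow cells had the highest mean in 7 of these 10. In blood-derived cells 9 of the 10 were lower than in bone marrow, against 48.3% of probe sets, with log2 differences from -3.60 to 0.01. For 8 lymphocyte markers it was 4.07 to 4.28, 3.93 to 4.07 and 3.98 to 4.16, and bone marrow cells had the highest mean in 3 of the 8. The pan-leukocyte markers were thus highest on the bone marrow arrays, where the replication genes were lowest, with the bone marrow mean the highest in 7 of 8. The part of leukocyte markers and matrix genes in the differences below was not tested. Of the 47 replication genes 13 had a mean below 4.62 in bone marrow cells, and 5 (POLD1, POLE, UHRF1, CDC25A and BRCA1) had one below it in every group. No background or detection value was used for such dim probe sets, so their differences hold for the deposited values only.

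The replication genes were lowest in bone marrow cells and highest in blood-derived cells, with adipose cells in between. The median level over the 47 genes was 5.24, 5.19 and 5.24 on bone marrow arrays 1 to 3. It was 5.98, 6.82 and 6.24 on the blood-derived arrays and 5.36, 6.36 and 5.42 on the adipose arrays. All 3 blood-derived arrays thus stood above all bone marrow arrays, while adipose array 2 lay among the blood-derived arrays and adipose arrays 1 and 3 lay near bone marrow. In 43 of the 47 genes the blood-derived cells had the highest mean of the 3 groups, an order found for 30.6% of all probe sets. In 42 genes the bone marrow cells had the lowest mean, against 10460 of all 30559 probe sets. The order of blood-derived, adipose and bone marrow cells was followed by 38 genes (80.9%, against 13.2% of all probe sets). In 17 genes all bone marrow arrays lay below all 6 other arrays, against 3.44% of probe sets.

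**Figure D1:**
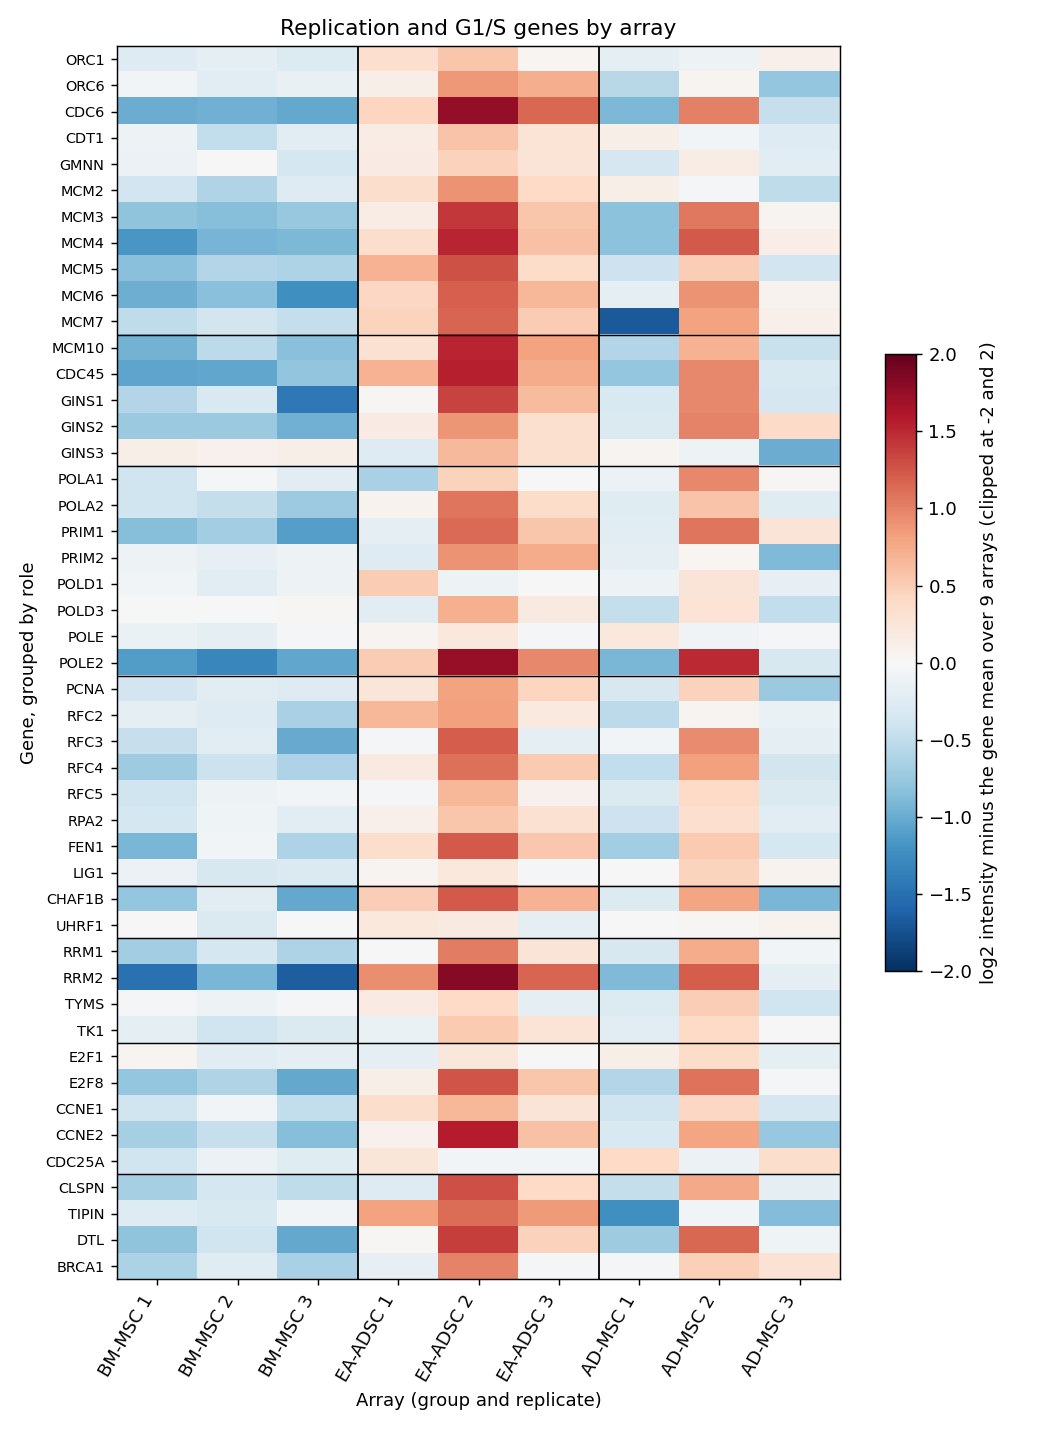
Log2 intensity of each of the 47 replication and G1/S genes (rows, grouped by role in the order of the text) on each of the 9 arrays (columns), minus the gene's mean over the arrays, with red above and blue below that mean. Blood-derived array 2 holds the highest value of 38 genes, and the bone marrow columns are mostly blue.

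Single genes seldom passed the test once it was adjusted over all 30559 probe sets. By the moderated F test of limma 4 of the 47 genes differed among the groups at an adjusted p under 0.05, which is close to the 7.48% of all probe sets called. These were TIPIN (adjusted p = 0.0193), MCM6 (0.0209), RRM2 (0.0325) and MCM5 (0.0439). Counts for the set departed from those of all probe sets in direction and at the looser thresholds. The genes moved together by array, with array 2 the highest in 44 of 47 in blood-derived and 40 in adipose cells. They are therefore not separate pieces of evidence, and the counts are descriptive. Of all probe sets 13427 name no gene, while 40 of the 47 genes had a mean above the median of all values. For blood-derived against bone marrow cells all 47 differences were above 0, against 51.7% of all probe sets, and their median was 0.96 on the log2 scale, against 0.01. In 38 genes the blood-derived arrays lay wholly above the bone marrow arrays, against 9.52% of probe sets, and in none wholly below, against 8.87%. At an unadjusted p under 0.05, 33 genes were higher and none lower, against 6.04% of probe sets higher and 5.63% lower. A difference of at least 2-fold was reached by 21 genes, against 2.16% of probe sets. After adjustment 1 gene, MCM6, was higher, against 0.35% of probe sets.

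Without blood-derived array 2, the highest array for most of these genes, 44 of the 47 differences from bone marrow were above 0, with a median of 0.69. In that fit 22 genes were higher at an unadjusted p under 0.05, against 4.94% of probe sets, and 39 did not overlap, against 14.7%. The genes whose difference changed sign were GINS3 (-0.07), POLA1 (-0.10) and POLD3 (-0.02).

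All 11 origin licensing genes had blood-derived arrays wholly above the bone marrow arrays, against 9.52% of probe sets. At an unadjusted p under 0.05, 10 of them were higher, against 6.04%, and the median log2 difference was 1.16. The genes moved largely together by array, so counts by role, here and below, are not separate evidence. MCM6, a subunit of the helicase ring (probe set 15008929), was at 6.72, 6.85 and 6.46 on the bone marrow arrays, 8.10, 8.89 and 8.36 on the blood-derived arrays and 7.50, 8.59 and 7.77 on the adipose arrays. Bone marrow cells stood apart below both other groups, which overlapped each other. MCM6 was 3.41-fold higher in blood-derived than in bone marrow cells (log2 difference 1.77 ± 0.30 SE, adjusted p = 0.0425), and 2.42-fold higher in adipose than in bone marrow cells (1.28, adjusted p = 0.0454). The first call was lost without any 1 bone marrow or blood-derived array or adipose array 3 (adjusted p 0.0562 to 0.151), with log2 differences of 1.55 to 1.95.

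MCM5 (15058902), another ring subunit, was at 4.71, 4.97 and 4.93 on the bone marrow arrays, 6.25, 6.82 and 5.91 on the blood-derived arrays and 5.14, 6.04 and 5.17 on the adipose arrays. Every blood-derived array exceeded the bone marrow arrays, and adipose array 2 exceeded the lowest blood-derived array. The difference between blood-derived and bone marrow cells was 2.74-fold (adjusted p = 0.0714). The other ring subunits followed the same order of groups. MCM2 was at 5.23 ± 0.17 in bone marrow, 6.18 ± 0.31 in blood-derived and 5.49 ± 0.33 in adipose cells. MCM3 was at 5.75 ± 0.05, 7.26 ± 0.64 and 6.65 ± 0.94, and MCM4 at 5.26 ± 0.14, 7.07 ± 0.62 and 6.43 ± 1.02. MCM7 was at 7.11 ± 0.07, 8.27 ± 0.40 and 7.30 ± 1.28. Its wide spread in adipose cells came with a value of 5.88 on adipose array 1, below every bone marrow array, beside 8.37 and 7.66 on the others.

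Among the loaders of the ring, CDC6, an ATPase that brings MCM proteins to the origin, had the largest difference. It was at 4.90 ± 0.03 in bone marrow, 6.99 ± 0.66 in blood-derived and 5.77 ± 1.00 in adipose cells, a 4.27-fold difference between the first 2 (adjusted p = 0.11). ORC1 and ORC6, subunits of the origin recognition complex, were at 4.82 ± 0.04 and 5.47 ± 0.09 in bone marrow and 5.38 ± 0.26 and 6.19 ± 0.40 in blood-derived cells. The loading factor CDT1 was at 5.41 ± 0.20, 6.00 ± 0.21 and 5.61 ± 0.19 in bone marrow, blood-derived and adipose cells. Its inhibitor geminin, GMNN, which blocks relicensing after S phase has begun, was at 8.21 ± 0.18, 8.65 ± 0.15 and 8.22 ± 0.26. CDT1 and GMNN had smaller differences than the ring subunits, at 1.51-fold and 1.36-fold between blood-derived and bone marrow cells (adjusted p = 0.18 and 0.347).

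The factors that activate the helicase had a median log2 difference of 1.44 between blood-derived and bone marrow cells. At an unadjusted p under 0.05, 4 of 5 were higher, against 6.04% of probe sets. CDC45 (15125419), which completes the active helicase, was at 4.34, 4.35 and 4.61 on the bone marrow arrays, 6.09, 6.94 and 6.13 on the blood-derived arrays and 4.62, 6.36 and 5.09 on the adipose arrays. The blood-derived arrays exceeded all bone marrow arrays, and the adipose arrays reached from just above bone marrow to the level of blood-derived cells. The difference from bone marrow was 3.88-fold (adjusted p = 0.086). MCM10, which helps origins to fire, was at 4.67 ± 0.22 in bone marrow, 6.31 ± 0.62 in blood-derived and 5.31 ± 0.70 in adipose cells.

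Among the GINS subunits only GINS3 departed from the order of blood-derived, adipose and bone marrow cells. GINS1 was at 4.42 ± 0.59, 5.86 ± 0.66 and 5.30 ± 0.74 in bone marrow, blood-derived and adipose cells. GINS2 was at 4.84 ± 0.12, 6.11 ± 0.38 and 6.01 ± 0.64, about as high in adipose as in blood-derived cells (log2 difference 0.09, adjusted p = 0.906). GINS3 was at 5.23 ± 0.02, 5.37 ± 0.46 and 4.79 ± 0.56, and its difference between blood-derived and bone marrow cells (0.14, 95% interval -0.56 to 0.83) lay within the spread of the arrays. All 3 adipose arrays were below the bone marrow arrays for GINS3, the only gene of the 47 with that pattern. GINS4, the remaining subunit, which is outside the set, was at 4.54 ± 0.06, 5.75 ± 0.51 and 5.18 ± 0.29 (adjusted p = 0.0798 against bone marrow).

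Polymerase and primase genes were split. The median log2 difference of the 8 genes between blood-derived and bone marrow cells was 0.43. At an unadjusted p under 0.05, 3 were higher, against 6.04% of probe sets. PRIM1 (15102858), the catalytic primase subunit that makes the RNA primers, was at 8.28, 8.43 and 8.03 on the bone marrow arrays, 8.95, 10.26 and 9.68 on the blood-derived arrays and 8.91, 10.19 and 9.39 on the adipose arrays. The blood-derived and adipose arrays covered nearly the same range, above all bone marrow arrays. PRIM1 was 2.61-fold higher in blood-derived and 2.38-fold higher in adipose than in bone marrow cells (adjusted p = 0.178 and 0.104).

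POLE2, the second subunit of the leading-strand polymerase, had the largest difference of these genes. It was at 4.55 ± 0.13 in bone marrow, 6.77 ± 0.63 in blood-derived and 5.79 ± 1.25 in adipose cells (4.67-fold between the first 2, adjusted p = 0.141). POLA2, an accessory subunit of the priming polymerase, was at 5.10 ± 0.17, 6.13 ± 0.51 and 5.66 ± 0.47. The catalytic subunits of the 3 DNA polymerases gave smaller differences, within the spread of the arrays. The log2 difference between blood-derived and bone marrow cells was 0.19 for POLE (95% interval -0.10 to 0.48), 0.26 for POLD1 (-0.17 to 0.69) and 0.16 for POLA1 (-0.62 to 0.94). POLE and POLD1 are among the dim probe sets. POLD3, an accessory subunit, and PRIM2, the large primase subunit, differed by 0.22 and 0.59, and their groups overlapped.

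The sliding clamp, its loader and the enzymes that finish the lagging strand had a median log2 difference of 0.84 between blood-derived and bone marrow cells. All 8 had blood-derived arrays wholly above the bone marrow arrays, against 9.52% of probe sets. Of the 8, 5 were higher at an unadjusted p under 0.05, against 6.04%. RFC2 (14978827), a clamp loader subunit, was at 6.73, 6.65 and 6.27 on the bone marrow arrays, 7.58, 7.74 and 7.11 on the blood-derived arrays and 6.39, 6.97 and 6.78 on the adipose arrays. The blood-derived arrays stood above all others, and the adipose arrays overlapped bone marrow. The difference was 1.90-fold from bone marrow and 1.70-fold from adipose cells (adjusted p = 0.118 and 0.084). PCNA, the clamp itself, was at 9.81 ± 0.09 in bone marrow, 10.59 ± 0.28 in blood-derived and 9.90 ± 0.61 in adipose cells.

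FEN1, the nuclease that trims Okazaki fragments, was at 4.62, 5.48 and 4.91 on the bone marrow arrays, and at 6.24 ± 0.46 in blood-derived and 5.35 ± 0.62 in adipose cells. Its difference between blood-derived and bone marrow cells was 2.36-fold (adjusted p = 0.203). The loader subunits RFC3, RFC4 and RFC5 had log2 differences of 0.89, 1.19 and 0.42 from bone marrow, and the single-strand binding subunit RPA2 one of 0.55. LIG1, the ligase that seals the fragments, was at 5.19 ± 0.11, 5.51 ± 0.12 and 5.61 ± 0.24. It was 1 of 4 genes whose adipose mean exceeded the blood-derived mean, with POLA1, E2F1 and CDC25A, and these 4 differences, from -0.10 to -0.35, had adjusted p of 0.613 to 0.812.

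Of the chromatin genes CHAF1B (15054030), the middle subunit of the chaperone that places histones on new DNA, was at 4.19, 4.75 and 3.95 on the bone marrow arrays, 5.46, 6.19 and 5.67 on the blood-derived arrays and 4.69, 5.76 and 4.06 on the adipose arrays. Blood-derived arrays were above bone marrow, and adipose arrays spread across both. The difference from bone marrow was 2.79-fold (adjusted p = 0.18). UHRF1, which carries DNA methylation over to the new strand, differed by 0.17 (95% interval -0.17 to 0.50), with overlapping groups and low signal.

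Among the genes of deoxynucleotide supply, RRM2 (14994507), the regulated subunit of ribonucleotide reductase, had the largest difference of all 47 genes. It was at 5.53, 6.10 and 5.36 on the bone marrow arrays, 7.94, 8.84 and 8.18 on the blood-derived arrays and 6.14, 8.22 and 6.83 on the adipose arrays. Neither other group overlapped bone marrow, and adipose array 2 lay among the blood-derived arrays. RRM2 was 6.32-fold higher in blood-derived than in bone marrow cells (log2 difference 2.66 ± 0.49 SE, adjusted p = 0.0564), and passed without adipose array 1 (0.0387) or 2 (0.0147). Its partner RRM1, the large subunit, was at 6.50 ± 0.18, 7.48 ± 0.53 and 7.16 ± 0.56. TK1, the thymidine kinase of S phase, was at 5.83 ± 0.11, 6.34 ± 0.33 and 6.18 ± 0.31. TYMS, which makes thymidylate, was at 8.90 ± 0.04, 9.08 ± 0.30 and 8.91 ± 0.48, and its log2 difference of 0.18 from bone marrow (95% interval -0.38 to 0.74) lay within the spread.

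**Figure D2:**
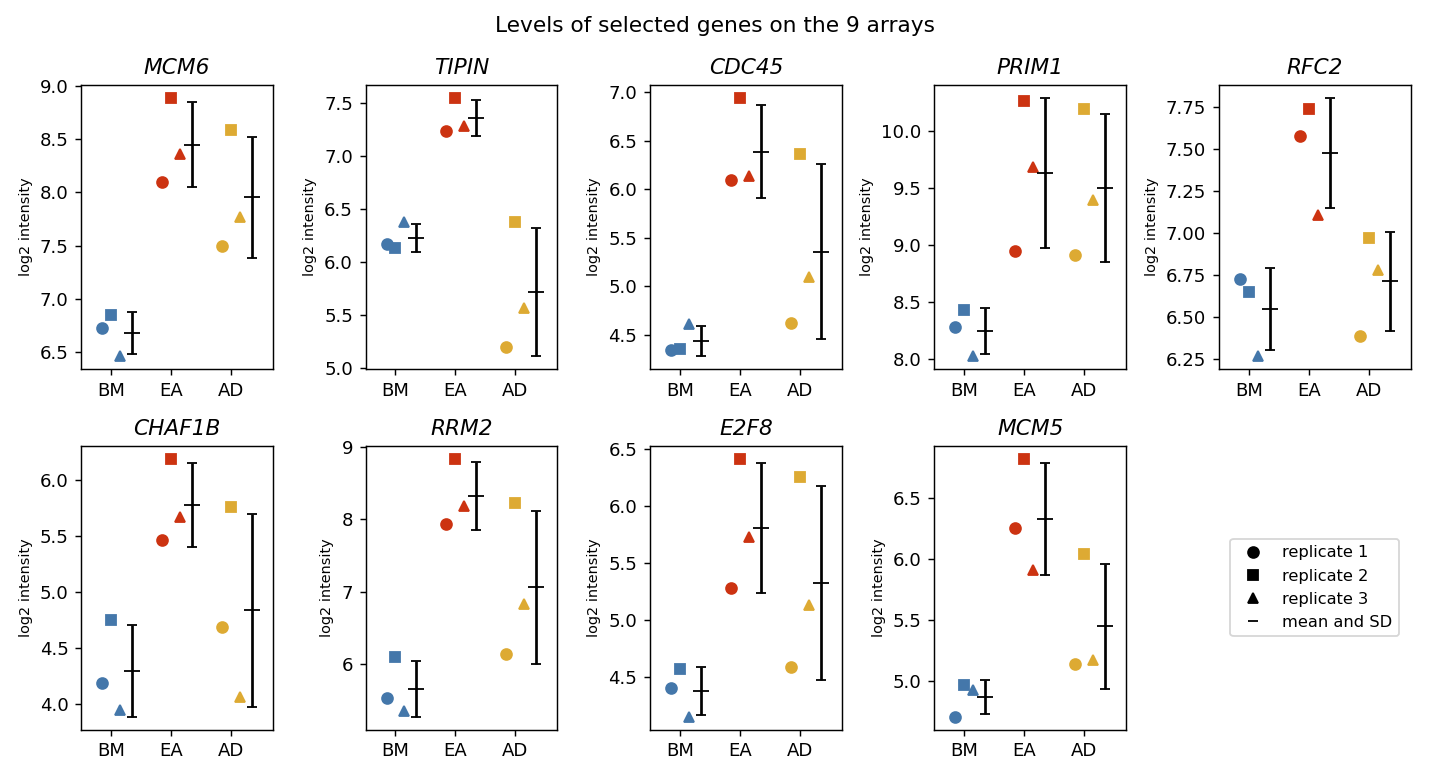
Log2 intensity (vertical axis, a separate scale for each gene) of 9 genes on the arrays of bone marrow (BM), blood-derived (EA) and adipose (AD) cells, with symbols for replicates 1 to 3 and the mean with SD (n = 3) to the right. In adipose cells replicate 2 is the highest for each gene shown. For TIPIN (7.35 ± 0.17) and RFC2 (7.48 ± 0.33) all blood-derived arrays lie above all others.

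Regulators of the G1/S switch had a median log2 difference of 0.74 between blood-derived and bone marrow cells. At an unadjusted p under 0.05, 3 of 5 were higher, against 6.04% of probe sets. E2F8 (15113085), an atypical E2F that represses E2F targets late in S phase and is itself a target, was at 4.40, 4.57 and 4.15 on the bone marrow arrays, 5.28, 6.42 and 5.73 on the blood-derived arrays and 4.59, 6.26 and 5.13 on the adipose arrays. Both other groups lay above bone marrow, and they overlapped each other. The difference between blood-derived and bone marrow cells was 2.71-fold (adjusted p = 0.206). CCNE1 and CCNE2, the E cyclins that drive entry into S phase, were at 5.87 ± 0.23 and 4.07 ± 0.19 in bone marrow, 6.61 ± 0.21 and 5.48 ± 0.76 in blood-derived and 6.08 ± 0.46 and 4.63 ± 0.79 in adipose cells. E2F1, the activator of this programme, was at 4.80 ± 0.14, 4.92 ± 0.21 and 5.01 ± 0.28, and its difference from bone marrow (0.12, 95% interval -0.29 to 0.52) was within the spread. CDC25A, the phosphatase that activates the S phase kinase, was at 3.04 ± 0.13, 3.33 ± 0.18 and 3.51 ± 0.28, all dim.

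Genes that protect the fork had a median log2 difference of 1.06 between blood-derived and bone marrow cells. At an unadjusted p under 0.05, 4 of 4 were higher, against 6.04% of probe sets. TIPIN (14937336), which forms the fork protection complex with TIMELESS, was at 6.17, 6.13 and 6.38 on the bone marrow arrays, 7.24, 7.55 and 7.28 on the blood-derived arrays and 5.20, 6.38 and 5.57 on the adipose arrays. The blood-derived arrays lay close together above all others. TIPIN was 3.11-fold higher in blood-derived than in adipose cells (log2 difference 1.64, adjusted p = 0.0105) and 2.19-fold higher than in bone marrow cells (1.13, adjusted p = 0.12). The call against adipose cells remained in all 9 fits that left out 1 array, with adjusted p of 0.00148 to 0.0436. TIMELESS, chosen after its values were seen, was at 4.05 ± 0.10 in bone marrow, 4.65 ± 0.41 in blood-derived and 4.51 ± 0.22 in adipose cells, so its adipose level was nearer to the blood-derived level.

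CLSPN, the adaptor of the replication checkpoint, was at 3.64 ± 0.15, 4.63 ± 0.78 and 4.19 ± 0.65 in bone marrow, blood-derived and adipose cells. DTL, which directs the destruction of CDT1 in S phase, was at 3.69 ± 0.32, 5.05 ± 0.70 and 4.55 ± 0.94. BRCA1, of DNA repair, was at 3.45 ± 0.23, 4.23 ± 0.63 and 4.20 ± 0.26. For CLSPN and DTL the adipose arrays overlapped both other groups, and BRCA1 had adipose arrays wholly above bone marrow.

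**Figure D3:**
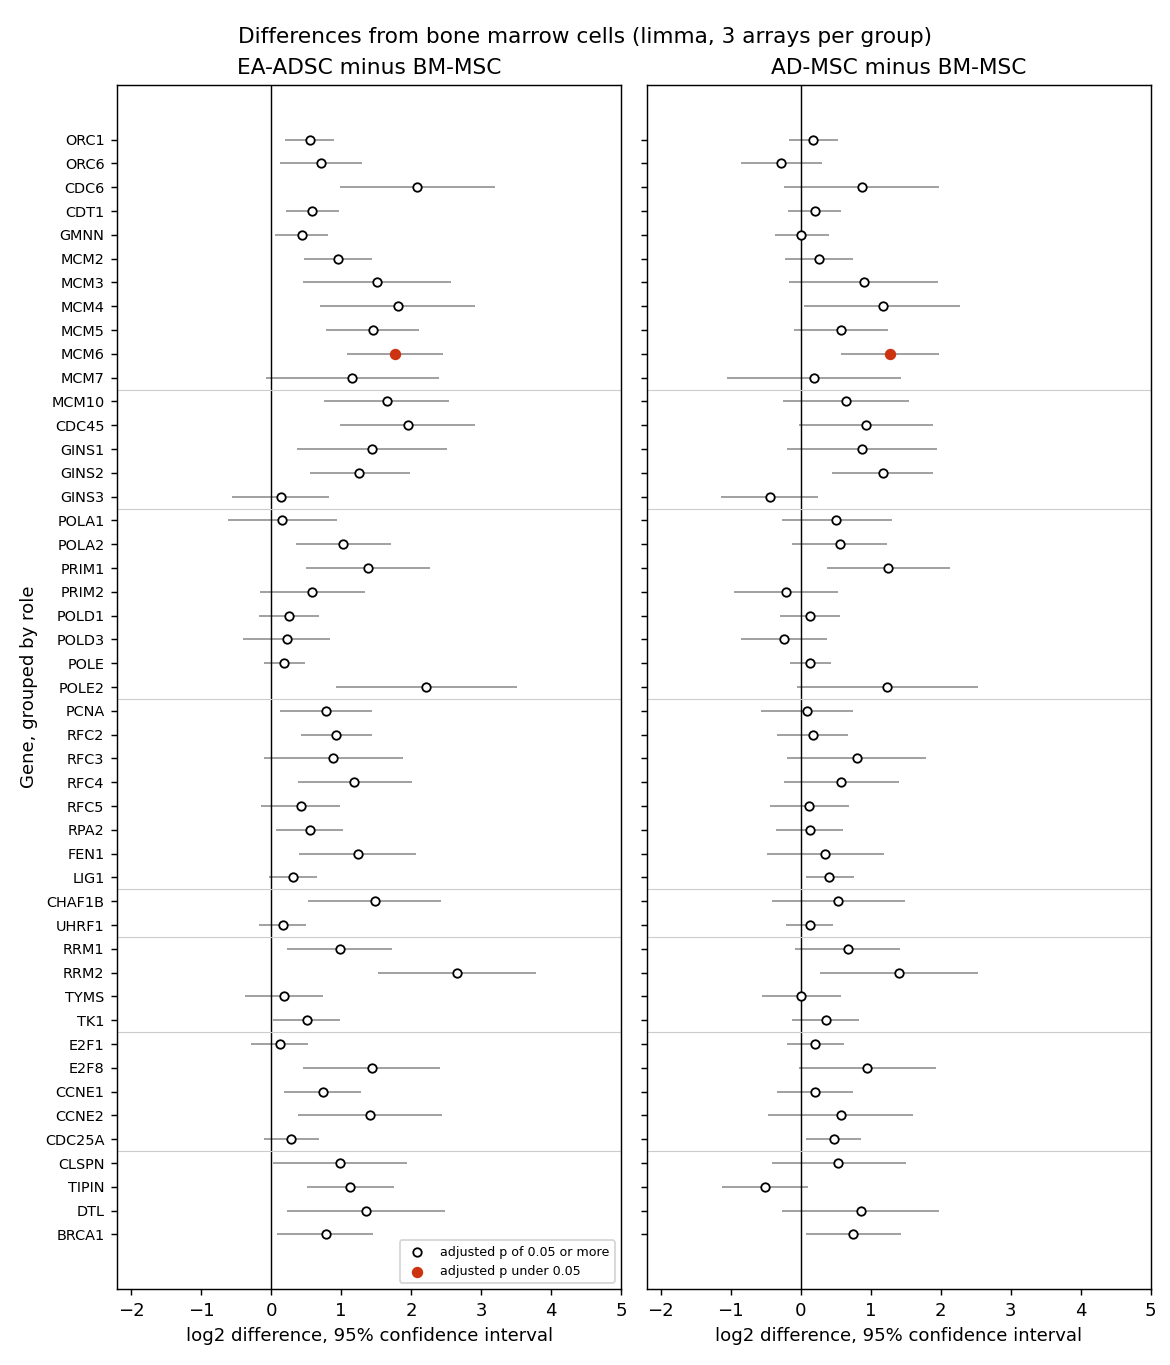
Log2 difference of each gene from bone marrow cells (horizontal axis, with 95% confidence interval from limma, 3 arrays per group) for blood-derived cells on the left and adipose cells on the right. All 47 points lie above 0 on the left and 42 on the right, and MCM6 alone is filled in both panels as past an adjusted p of 0.05.

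The second comparison sets blood-derived against adipose cells, and shares the blood-derived arrays with the first. Of the 47 genes 43 had a difference above 0, against 46.8% of all probe sets, and 4 had one below 0, against 53.2%, with a median of 0.49, against -0.02. At an unadjusted p under 0.05, 15 were higher and none lower, against 9.8% of probe sets higher. After adjustment 1 gene, TIPIN, was higher and none lower, against 3.49% and 3.43% of probe sets, so the count is below the background. A difference of at least 2-fold was reached by 4 genes, against 3.23%. The blood-derived arrays lay wholly above the adipose arrays in 6 genes (ORC6, CDT1, GMNN, MCM2, RFC2 and TIPIN), a share near the 10.8% of all probe sets. These 6 also lay above all bone marrow arrays, against 3.38% of probe sets that did so against both groups. Licensing genes made up 7 of the 15, with ORC6 at 1.99-fold (adjusted p = 0.0554), CDC6 at 2.34-fold (0.192), MCM2 at 1.62-fold (0.0983) and MCM5 at 1.83-fold (0.126). RRM2 was 2.39-fold and CDC45 2.04-fold higher (adjusted p = 0.188 and 0.205).

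The third comparison sets adipose against bone marrow cells, both without treatment. Of the 47 genes 42 had a difference above 0, against 55.2% of all probe sets, and 5 had one below 0, against 44.8%, with a median of 0.47, against 0.04. In 18 genes the adipose arrays lay wholly above the bone marrow arrays, against 14% of probe sets. At an unadjusted p under 0.05, 8 genes were higher and none lower, against 11.6% and 9.51% of probe sets. The 8 genes were MCM6, MCM4, GINS2, PRIM1, RRM2, LIG1, CDC25A and BRCA1. A difference of at least 2-fold was reached by 6 genes upwards and none downwards, against 3.36% and 3.13%. After adjustment MCM6 alone was higher, against a background of 2.83%, and it lost that call without any 1 bone marrow array, blood-derived array 1 or 3, or adipose array 2 or 3 (adjusted p 0.0526 to 0.14). The 5 genes with an adipose mean below that of bone marrow were ORC6 (-0.28), GINS3 (-0.44), PRIM2 (-0.21), POLD3 (-0.24) and TIPIN (-0.51). TIPIN passed as lower without adipose array 2 (-0.84, adjusted p = 0.037), and PRIM2 changed sign without adipose array 3 (0.06).

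The spread within the blood-derived and adipose groups was wide for these genes and followed single arrays. The median SD over the 47 genes was 0.15 in bone marrow, 0.46 in blood-derived and 0.56 in adipose cells, beside 0.17, 0.20 and 0.25 over all probe sets. Blood-derived array 2 was the highest of its group in 44 of 47 genes (31.0% of all probe sets), by a median of 0.66 above the mean of the other two. Adipose array 2 exceeded bone marrow array 1 in 46 of 47 genes, by a median of 1.11, and the other bone marrow arrays in 46 and 44. It exceeded blood-derived arrays 1 and 3 in 35 and 33 genes, with medians of 0.39 and 0.21, and blood-derived array 2 in 6 genes, with a median of -0.33. Adipose array 1 exceeded bone marrow arrays 1, 2 and 3 in 33, 26 and 34 genes, with medians of 0.18, 0.02 and 0.13, and adipose array 3 did so in 33, 32 and 35. The replicate numbers of different groups name different horses or none, so these arrays are not known to be linked.

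Adipose array 2 was the highest of its group in 40 of 47 genes, so leaving it out must lower their adipose mean. In the fit without it, the gap between blood-derived and adipose cells was therefore wider. The median difference became 0.79, 29 genes were higher at an unadjusted p under 0.05, against 10% of probe sets, and 31 did not overlap, against 15.5%. After adjustment 10 genes were higher, against 3.3%. Against bone marrow the same fit had 35 blood-derived genes at an unadjusted p under 0.05 (6.58% of probe sets) and 7 after adjustment (0.671%). For adipose against bone marrow cells 1 passed after adjustment (2.57% of probe sets higher, 844 of 30559 lower). This gene was TIPIN, which was lower in adipose cells (-0.84, adjusted p = 0.037), and MCM6 lost its call (0.0729). With blood-derived array 2 left out as well, the values were a median of 0.56, 24 genes at an unadjusted p under 0.05, against 8.98%, 32 genes without overlap, against 20.1%, and 5 genes after adjustment, against 1.98%. The same removal left a median of 0.19 between adipose and bone marrow cells, with 34 of 47 genes above 0. Without blood-derived array 2 alone, 4 genes were higher than in adipose cells at an unadjusted p under 0.05, against 8.84%, and 1 passed after adjustment, against 2.05%. The remaining fits without 1 array gave 5 to 17 genes at that unadjusted threshold, where all arrays gave 15. It was 6 without adipose array 1, 5 without adipose array 3 and 17 without blood-derived array 1.

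Mitosis genes were the nearest set for comparison. Their 38 genes had a median log2 difference of 2.02 between blood-derived and bone marrow cells and of 1.92 between adipose and bone marrow cells, where the replication genes had 0.96 and 0.47. Between blood-derived and adipose cells the medians were 0.25 for mitosis and 0.49 for replication genes. The adipose arrays lay wholly above bone marrow in 30 of 38 mitosis genes and 18 of 47 replication genes, against 14% of probe sets. After adjustment 14 mitosis genes were higher, against 2.83%. For blood-derived against bone marrow cells 37 mitosis genes did not overlap (9.52% of probe sets) and 6 passed after adjustment (0.35%). The order of blood-derived, adipose and bone marrow cells held in 76.3% of mitosis and 80.9% of replication genes, so it was not particular to replication genes. The difference between the sets was not tested. CDK1, the mitotic kinase, was at 6.39 ± 0.33 in bone marrow, 9.54 ± 0.50 in blood-derived and 8.92 ± 0.75 in adipose cells. Array by array, mitosis genes stood 1.68 above their own means on adipose array 2 and 1.28 above on blood-derived array 2, while for replication genes these medians were 0.49 and 0.99.

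**Figure D4:**
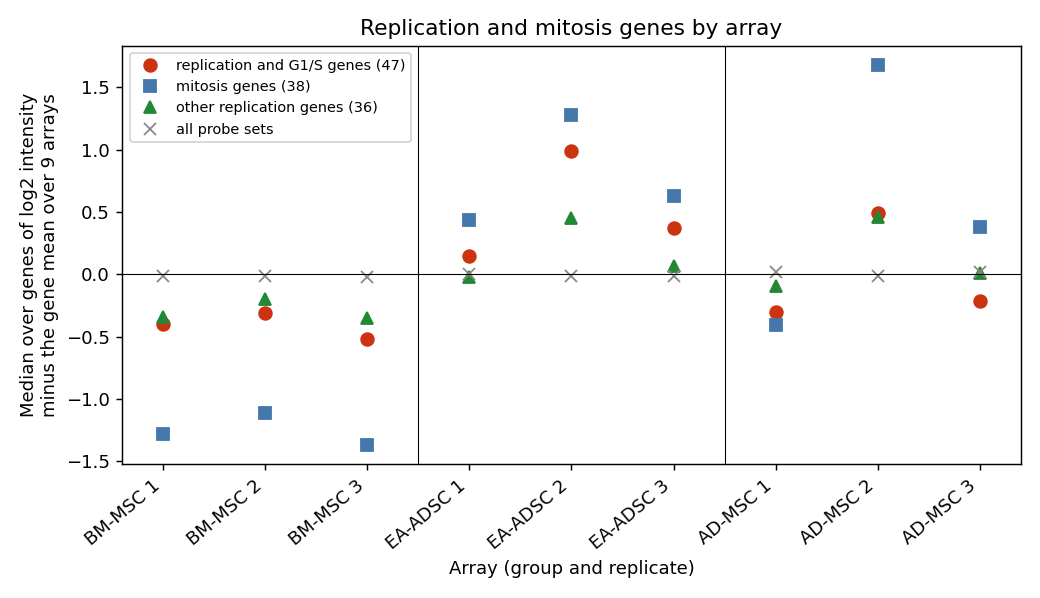
Median over genes of the log2 intensity minus each gene's mean over the 9 arrays (vertical axis) for each array (horizontal axis), for replication and G1/S genes, mitosis genes, other replication genes and all probe sets. Adipose array 2 is the highest array for mitosis genes (1.68) and blood-derived array 2 for replication genes (0.99).

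Of 41 further replication genes 36 were measured. Their median log2 difference between blood-derived and bone marrow cells was 0.47. At an unadjusted p under 0.05, 16 were higher and 2 lower, against 6.04% and 5.63% of probe sets, and none passed after adjustment. DSCC1, of an alternative clamp loader, was 4.77-fold higher (adjusted p = 0.086) and DUT, which removes dUTP, 3.94-fold higher (0.0949). Between blood-derived and adipose cells the median was 0.12, and TOP1 (-1.05), a topoisomerase, and RPA3 (-0.53), of the single-strand binding complex, were lower after adjustment, RPA3 in 4 and TOP1 in all of the 9 fits without 1 array. Between adipose and bone marrow cells DBF4, POLE4, RPA3 and TOP1 were higher and ORC4 lower after adjustment. POLE4 alone of these 5 kept its call in each of the 9 fits without 1 array, and TOP1 lost it without bone marrow array 1 (0.0549). RPA3, ORC4 and DBF4 lost theirs in 5 or more of these fits.

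All 25 listed regulators upstream of or beside E2F were measured, and their median log2 differences were 0.22 from bone marrow and 0.04 from adipose cells. RBL2, the retinoblastoma-related repressor p130 of resting cells, was at 7.16 ± 0.16 in bone marrow, 6.37 ± 0.08 in blood-derived and 6.57 ± 0.12 in adipose cells. It was lower than in bone marrow in both other groups (adjusted p = 0.0342 and 0.0321), and the first call was lost without any 1 of the 6 arrays compared (0.0632 to 0.144). The second was lost without bone marrow array 2 or 3, blood-derived array 3 or adipose array 2 or 3 (0.0522 to 0.115), and stood at 0.05, just inside the threshold, without blood-derived array 2. Against adipose cells 4 genes were higher in blood-derived cells after adjustment, against 3.49% of probe sets. Cyclin D1, CCND1, was at 9.11 ± 0.30 against 6.92 ± 0.79 (adjusted p = 0.0138, and 0.0538 without blood-derived array 2). Its kinase CDK6 was at 6.80 ± 0.34 against 5.33 ± 0.48 (adjusted p = 0.0128).

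E2F5, a repressor E2F, was at 6.93 ± 0.19 against 5.71 ± 0.22 (adjusted p = 0.0042). E2F5 and CDK6 kept their calls in all 9 fits without 1 array. CDK2, the partner of E cyclins, was at 5.77 ± 0.35 against 4.80 ± 0.24 (adjusted p = 0.0231) and lost its call without blood-derived array 2 or 3 or adipose array 1 or 3 (0.0518 to 0.0666). RB1, the retinoblastoma gene, was lower, at 4.91 ± 0.41 against 5.77 ± 0.23 (adjusted p = 0.0494), a call lost in 7 of the 9 fits (0.0761 to 0.138). CCND1, CDK6, CDK2, RB1, TOP1, RPA3, DBF4, POLE4 and ORC4 were named after their values were seen. Of 8 listed CDK inhibitors 5 were measured and none passed the adjusted limma test in any comparison. At an unadjusted p under 0.05, 1 was higher and 1 lower against bone marrow, 1 lower against adipose cells, and 3 higher and 1 lower in adipose against bone marrow cells. CDKN3, a phosphatase that acts on cyclin-dependent kinases, had the smallest adjusted p against bone marrow. It was at 5.78 ± 0.42 in bone marrow, 8.13 ± 0.40 in blood-derived and 8.06 ± 1.39 in adipose cells (log2 difference 2.35, adjusted p = 0.145, and 0.0387 without adipose array 1). CDKN1A, the p53-induced inhibitor p21, was at 5.74 ± 0.30 in bone marrow, 5.11 ± 0.27 in blood-derived and 4.92 ± 0.44 in adipose cells (adjusted p = 0.384 and 0.104 against bone marrow).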

How the data were processed

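Expression was measured with Affymetrix arrays in 9 samples, 3 per group. The deposited values are log2 intensities, 1 per probe set and array, from 0.86 to 13.56, with array medians of 4.56 to 4.66. The submitters' processing notes name Partek 6.16.0419, Transcriptome Analysis Console 3 and Affymetrix Expression Console. The sources used here do not give the summarization, the normalization or the genome build. Values were used as deposited. The platform annotation named 1 gene for 16789 of 30559 probe sets, several for 343 and none for 13427.

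A model with 1 mean per group was fitted across all probe sets with limma 3.58.1 (R 4.3.3), with 6 residual degrees of freedom, moderated two-sided contrasts and Benjamini-Hochberg adjustment over all probe sets at 0.05. Adipose samples carry no horse label, and p-values measure the spread between samples. On simulated arrays the procedure recovered 44%, 92% and 96% of true log2 differences of 1, 2 and 3, with 11 false calls. Many true differences near 1 would thus be missed. The simulated noise was drawn for each probe set alone, unlike genes that move together by array. The 3 arrays per group limit the precision, with a median SE of 0.19 for blood-derived against bone marrow cells.

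The members and lists were chosen with earlier results of these data known. Any member could be named. Values on every array were given for members past the threshold in a contrast and, in each role without one, for the member with the smallest F-test p, and up to 3 genes per other list were named by adjusted p against bone marrow. MCM5, called by the F test alone, the single arrays of MCM7 and FEN1, and PTPRC were added after their values were seen. Lists of 10 lymphocyte and 7 endothelial markers, 10 matrix genes and 12 monocyte markers were read too. Over the measured genes, their medians between blood-derived and bone marrow cells were -0.04, 0.07, -0.18 and -0.37. Alternatives were quantile normalization, median centring, dim probe sets left out, limma-trend, array weights, a replicate block, a single or averaged probe set for each gene, 2-group fits and leaving out arrays.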

Additional observations from a re-analysis of the deposited data

How the results depend on the processing

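Across 19 alternatives to 117 named differences, 2005 of 2213 values kept their direction and side of the threshold, 98 were newly called, 98 lost a call and 12 changed sign. The count of replication genes called for blood-derived against bone marrow cells, 1, was 2 after quantile normalization, 0 after median centring, 4 with dim probe sets left out, 2 with limma-trend, 12 with array weights, 5 with 1 probe set per gene, with the mean of probe sets or with the 2 groups alone, and 6 without blood-derived and adipose arrays 2 together, an alternative chosen after seeing the data. Against adipose cells, 1 became 2 (dim probe sets left out, array weights), 3 (either gene-level setting) and 5 (without both arrays 2), where 15 genes at an unadjusted p under 0.05 became 5 with the 2 groups alone and 24 without both arrays 2, and 6 without overlap became 32. For adipose against bone marrow cells, 1 became 0 (median centring, 2 groups alone) or 2 (dim probe sets left out, array weights, either gene-level setting, without both arrays 2). Without both arrays 2 these calls included TIPIN, which was lower in adipose cells (-0.84, adjusted p = 0.0462). The 4 calls of the F test became 10 (dim probe sets left out, either gene-level setting), 13 (array weights) and 8 (without both arrays 2). The F test called 7.48% of all probe sets in the main fit. Its share was not counted for any alternative, so these counts have no background. The share of all probe sets called higher moved too. Against bone marrow it was 0.35%, and 1.42% without dim probe sets, 1.28% with array weights and 1.48% with 1 probe set per gene. In the same order it was 3.49%, 8.23%, 3.2% and 6.9% against adipose cells, and 2.83%, 6.26%, 3.18% and 5.15% for adipose against bone marrow. The settings with fewer probe sets adjust over fewer tests, and for the others the cause was not tested.

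With the replicate block the calls were 5 against bone marrow, 3 against adipose, 4 for adipose against bone marrow (23 at an unadjusted p under 0.05, from 8) and 12 by the F test. Over all probe sets the block called 0.474%, 2.7% and 2.38% higher in the first 3 of these, and the share by the F test was not counted. The numbers name different horses or none. Residuals of same-numbered arrays correlated at -0.02 to 0.12 and others at -0.12 to 0.04, and in 13 of 18 pairings of an array with another group it correlated best with its own number, a hint from the data and not from the design. No pairing was assumed, since the labels give none and only 1 same-numbered pair correlated above 0.1, blood-derived array 2 with adipose array 2 (0.12).

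Leaving out 1 array gave 0 to 7 calls against bone marrow, 1 to 10 against adipose cells, 0 to 2 for adipose against bone marrow and 1 to 15 by the F test. Calls in either direction were counted, and the F-test share over all probe sets was not counted in these fits. Over all probe sets the shares called higher ran from 0.0884% to 0.671%, 2.05% to 3.3% and 1.16% to 3.44% in these 3 comparisons. In the same 3 comparisons the counts at an unadjusted p under 0.05 ran from 22 to 35, 4 to 29 and 3 to 15, and those without overlap from 38 to 42, 6 to 31 and 18 to 27. The shares of probe sets without overlap were 9.52%, 10.8% and 14% with all arrays, and 9.52%, 15.5% and 21.8% without adipose array 2. The counts above 0 ran from 44 to 47, 37 to 44 and 34 to 43, and the medians from 0.69 to 1.07, 0.28 to 0.79 and 0.19 to 0.61. Sign changes were at values near 0. Against bone marrow GINS3 (-0.07 to 0.38), POLA1 (-0.10 to 0.46) and POLD3 (-0.02 to 0.43) changed sign without blood-derived array 2, alone or with adipose array 2. Against adipose cells PRIM1 ran from -0.18 to 0.48, LIG1 from -0.19 to 0.04 and E2F1 from -0.24 to 0.04, and for adipose against bone marrow PRIM2 from -0.40 to 0.06. MCM6 lost both calls after median centring (1.76 and 1.27, adjusted p 0.0541 and 0.0582), and the second with the 2 groups alone (0.0762).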
